A study of Mus musculus with 16 samples.

Results

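The data compared here are 4 RNA-seq libraries of mouse embryonic stem (ES) cells taken 12 h after the cells had been released from naive pluripotency, 2 from cells that had been kept in a medium called serum/LIF+2i and 2 from cells kept in 2i/LIF. They were chosen by their labels and are 4 of the 16 libraries of the study, whose other samples are the same media at 0, 24 and 40 h. All cells had first grown in serum with leukaemia inhibitory factor (LIF), had been adapted to either medium, and grew on gelatin. The medium 2i/LIF was serum-free, built on DMEM/F-12 and Neurobasal with N2 and B27, whereas serum/LIF+2i was knockout DMEM with 10% fetal bovine serum. Both held LIF and 2i, a pair of inhibitors: 3 uM CHIR99021, which blocks GSK3 and so turns on Wnt signalling, and 1 uM PD0325901, which blocks MEK and so silences ERK signalling. Exit was started by withdrawing 2i and LIF, and serum with them. The exit media were not the same. Cells from serum/LIF+2i went into glutamine-free DMEM mixed with Neurobasal, N2, B27 and 2 mM glutamine, while the 2i/LIF culture was simply moved to its usual serum-free base, so the past medium and the exit base medium cannot be told apart. The protocol describes 12 h exit for cells from 2i/LIF, and 24 or 40 h for cells from serum. The sample titles, which give 12 h for both, were followed. The strain of the cells is not named in the labels, which also do not say whether replicates were separate cultures, so p-values may measure the spread between technical samples.

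Naive ES cells represent the epiblast of the blastocyst before implantation. After withdrawal of 2i and LIF they take down the naive network of transcription factors and, over the following day, switch on genes of the formative epiblast, such as Otx2 and the de novo DNA methyltransferases. ERK signalling, freed from MEK inhibition, drives that step, and loss of GSK3 inhibition lets Wnt targets decay. Serum brings lipoproteins, lipids, growth factors, retinoids, iron carriers and proteins that cells can engulf and digest, all of which a defined medium lacks or supplies in other forms. The comparison addresses how far the cells from these 2 media differ after 12 h in which neither serum nor inhibitor was supplied.

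Libraries of 2i/LIF at 12 h held 7418253 and 7579351 counts, those of serum/LIF+2i 7461814 and 9580136, so that 3 counts equal 0.319 to 0.411 CPM (counts scaled to a common library size by trimmed mean of M values). Between 16794 and 17270 genes had a count. Ribosomal RNA took 0.574% to 1.15% of the counts, the highest share being in replicate 2 of serum/LIF+2i, and mitochondrial transcripts took 2.95% and 2.82% in 2i/LIF against 2.45% and 2.43% in serum/LIF+2i. Both replicate pairs differed by more than sampling noise, with a chi-square per degree of freedom of 1.42 and 3.14. An exon of Ccnd1, Col4a1, Col4a2, Ctsb, Ctsz, Cyp51, Glb1, Hsp90b1, Pfkp, Psph, Selenop, Shmt2, Slc30a1, Slc7a7, Stat3 or Yars overlaps one of another tested gene, so that these values are uncertain without a stated strand setting.

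Of 14288 genes tested, 4334 (30.3%) differed between the media at 12 h by edgeR's quasi-likelihood test at an adjusted p under 0.05. Of these, 2113 (14.8%) were higher and 2221 (15.5%) lower in cells from serum/LIF+2i. Most differences were small. The median absolute log2 fold change of the called genes was 0.37 with quartiles of 0.24 and 0.70, while 666 genes (4.66%) lay at least 2-fold apart, 364 higher and 302 lower, and 144 at least 4-fold apart. DESeq2's Wald test called 2668 of the same genes tested. Fold changes are written throughout as serum/LIF+2i over 2i/LIF on the log2 scale, with their standard error (SE), and pairs of CPM are given as the 2 libraries of serum/LIF+2i against the 2 of 2i/LIF.

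**Figure D1:**
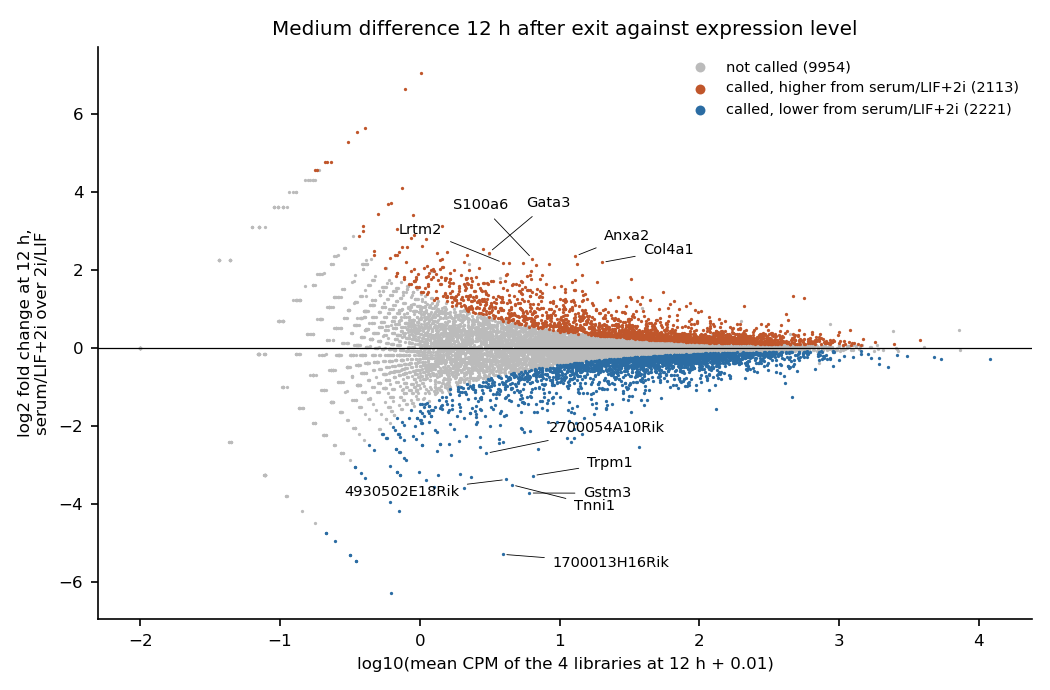
Log2 fold change at 12 h (y axis) against the mean level of the 4 libraries (x axis, log10 CPM) for the 14288 genes tested, with 2113 called higher in orange, 2221 called lower in blue and 9954 not called in grey. Most called genes form 2 thin bands close to 0 at high levels, with exceptions such as Ldha (1.29), and fan out at low ones. Named genes are examples with at least 5 CPM in the higher group.

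Among called genes with at least 5 CPM in the higher group and no overlap between the libraries, the 12 highest fold changes ran from 1.90 to 2.45. Gata3 (Entrez 14462, chr2:9857078-9887953, GRCm38), a transcription factor of trophoblast and other lineages, stood at 5.81 and 4.79 CPM against 1.10 and 0.802 CPM (log2 fold change 2.45, SE 0.40, adjusted p = 2.2e-07). Col4a1 (chr8:11198423-11312889), a chain of the basement membrane collagen IV, measured 33.2 and 32.7 CPM against 7.26 and 7.09 CPM (2.20, SE 0.14, adjusted p = 4.7e-27). The libraries did not overlap in either gene, and both were already higher at 0 h, by 2.39 and 2.04. Anxa2, a membrane-binding annexin, read 22.3 and 21.0 CPM against 4.52 and 3.88 CPM (2.36, SE 0.18), and S100a6, a calcium-binding protein, 9.46 and 11.7 against 2.74 and 1.60 CPM (2.29, SE 0.27). Emp1, a tetraspan membrane protein, gave 2.15, the surface glycoprotein Thy1 2.18 and the protease Capn2 1.98. Padi4, which turns arginine into citrulline in histones, reached 6.89 and 6.39 CPM against 1.51 and 2.01 (1.90, SE 0.30), and its medium difference differed from that at 0 h, which was 0.35 (adjusted p for the change = 0.0017). The other 4 were Lrtm2, Myo18b, Mapk8ip2 and Evc2, between 2.14 and 2.19.

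The 12 lowest fold changes ran from -5.30 to -2.34. 1700013H16Rik (Entrez 75514, chrX:53742901-53757970) held 1 and 2 counts in serum/LIF+2i and 55 and 58 in 2i/LIF, a ratio of 42.8 between 2i/LIF and serum/LIF+2i with a 95% counting interval of 14.3 to 211. Gpx2 (chr12:76792335-76795554), a selenium-dependent glutathione peroxidase, read 12.0 and 10.1 CPM against 66.3 and 60.8 CPM (-2.53, SE 0.11, adjusted p = 7.8e-43). Gstm3, a glutathione transferase, measured 1.08 and 0.639 against 11.4 and 11.1 CPM (-3.73, SE 0.30). Trpm1 (chr7:64153835-64269772), a cation channel, read 1.08 and 1.28 against 10.4 and 13 CPM (-3.28, SE 0.27). Its difference at 0 h, when the means were 60.4 and 165 CPM, was -1.45, and the widening on the log2 scale passed the test (adjusted p = 4.6e-06). The log2 fold change also widened for Dmgdh, a mitochondrial enzyme of choline breakdown, from -1.18 at 0 h to -2.59 (adjusted p for the change = 0.00012). It did so for Maml2, a Notch coactivator, from -1.25 to -2.41 (adjusted p for the change = 0.00031). In CPM both groups fell and lay closer together. Dmgdh means went from 35.5 and 80.6 CPM at 0 h to 2.01 and 11.9, and Maml2 means from 14.2 and 33.7 to 3.78 and 20.3. The remaining 6 were Tnni1, 4930502E18Rik, 2700054A10Rik, Pof1b, Rasgrp1 and Tex13b.

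**Figure D2:**
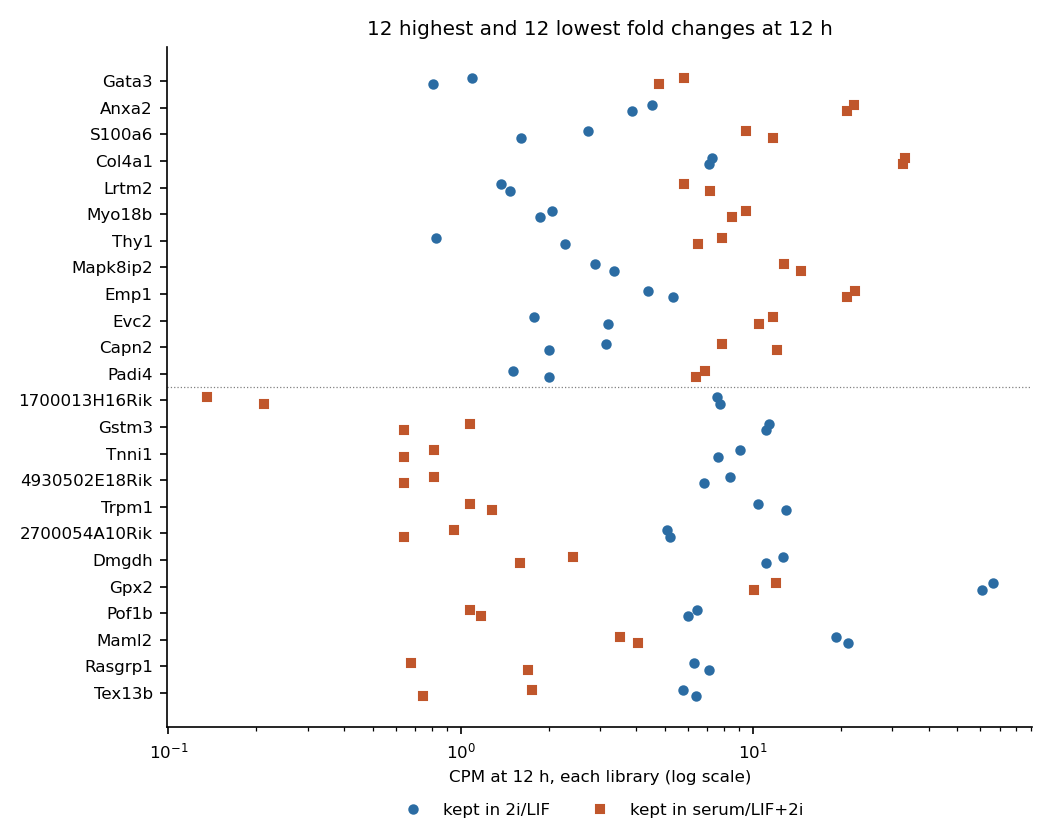
CPM at 12 h on a log axis in each of the 4 libraries for the genes with the 12 highest and 12 lowest fold changes, circles for cells kept in 2i/LIF and squares for cells kept in serum/LIF+2i. By the rule that chose them the 2 groups do not overlap; Gpx2, for example, lies at 12.0 and 10.1 CPM against 66.3 and 60.8 CPM.

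Members of the naive network were split. Of 14 naive factors, 3 were higher and 5 lower at 12 h, and their summed level was nearly level, with 3289 and 3293 CPM against 3328 and 3392 CPM (median log2 fold change -0.04, or -0.064 without replicate 1 of 2i/LIF, against -0.00 for all genes tested). Dppa3 (chr6:122626424-122630271), which guards the maternal methylome, differed most, at 4.32 and 3.30 CPM against 17.5 and 19.9 CPM (-2.32, SE 0.18, adjusted p = 3.1e-21). Klf4, a LIF target, read 38.2 and 39.8 CPM against 55.8 and 63.0 CPM (-0.60, SE 0.08), although before exit it had been higher in serum/LIF+2i by 0.36. Nanog did the same, from 0.27 at 0 h to -0.19 at 12 h, when it stood at 352 and 365 against 412 and 406 CPM. For all 3 genes the medium difference had changed since 0 h (adjusted p = 4.6e-06 for Dppa3, 1.5e-16 for Klf4 and 1.5e-11 for Nanog). Prdm14, a repressor of FGF signalling and DNA methylation, was lower by 0.46, whereas Tbx3 was higher, at 161 and 165 against 126 and 133 CPM (0.34, SE 0.05), and so was Zfp42 (0.18). Esrrb, Tfcp2l1, Klf2, Klf5, Nr0b1 and Nr5a2 were not called, with fold changes between -0.12 and 0.09.

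Core and formative factors leaned the other way. Of 9 core factors, 4 were higher and 0 lower: Lin28a, an RNA-binding protein that blocks let-7 maturation, stood at 528 and 545 CPM against 296 and 292 (0.87, SE 0.04, adjusted p = 2.0e-41), Utf1 at 454 and 476 against 287 and 331 (0.59, SE 0.05), and Zfp281 and Pou5f1 were higher by 0.35 and 0.16. The lead of Lin28a was larger than at 0 h, where it was 0.57 (adjusted p for the change = 0.00066), and that of Utf1 was smaller, down from 1.20 (adjusted p = 0.00039). Of the formative and primed list, 9 of 17 were higher and 3 lower (median 0.22). Grhl2, an epithelial pioneer factor that the epiblast gains at this stage, read 45.1 and 46.4 CPM against 21.0 and 17.2 (1.26, SE 0.10). Otx2 (chr14:48656781-48667644), an early factor of the formative programme, read 38.7 and 36.7 CPM against 18.6 and 21.1 (0.92, SE 0.11, adjusted p = 1.8e-12), after 1.62 and 2.20 against 0.345 and 0.759 CPM at 0 h. Sall2 (0.79), Lin28b (0.82) and the ERK-induced growth factor Fgf15 (1.72) were higher as well. The list was not uniform: Zic2, another formative factor, was lower, at 88.0 and 80.2 against 134 and 143 CPM (-0.72, SE 0.10), and Fgf5, a late formative marker, was not called, at a mean of 1.97 CPM in both groups.

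**Figure D3:**
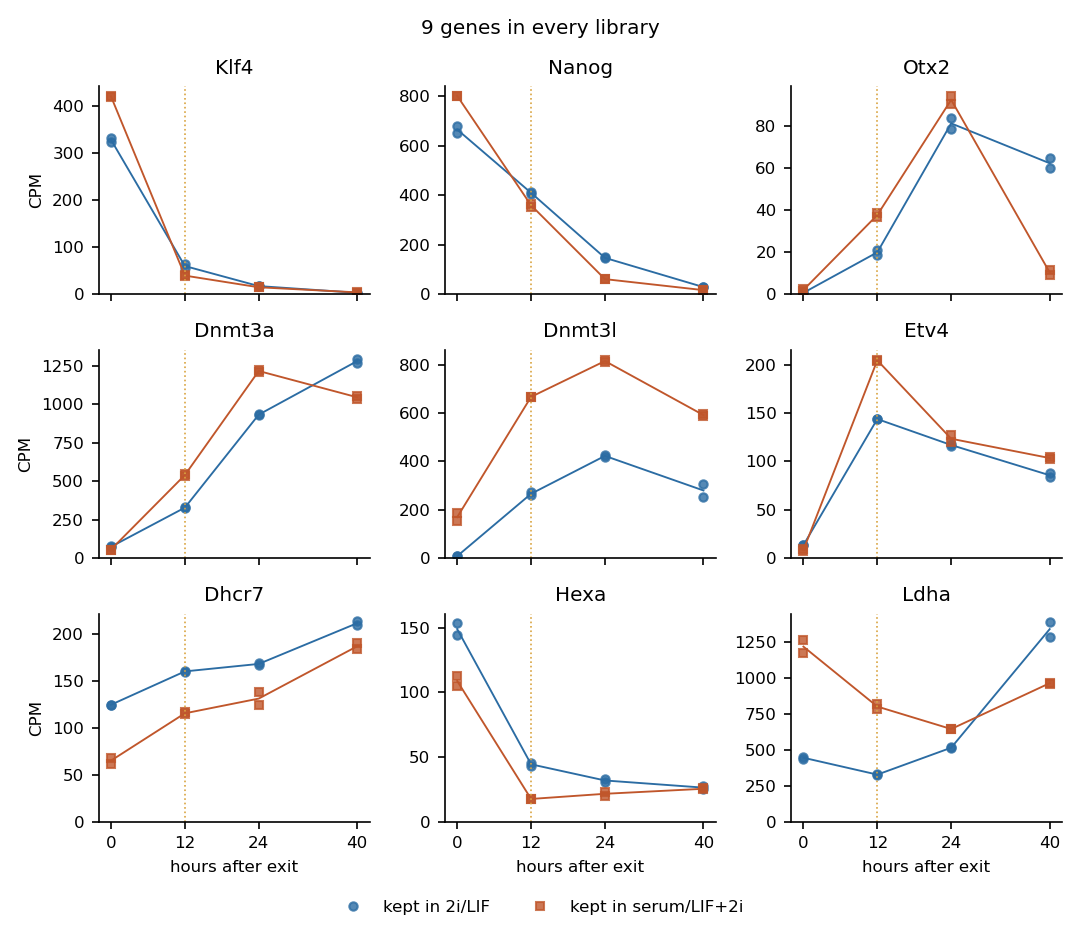
CPM of 9 genes in every library (points) and their group means (lines) at 0, 12, 24 and 40 h after exit, with 12 h marked by a dotted line. At 12 h Klf4, Nanog, Dhcr7 and Hexa lie lower and Otx2, Dnmt3a, Dnmt3l, Etv4 and Ldha higher in cells kept in serum/LIF+2i, with no overlap between the groups.

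The de novo DNA methylation genes separated from one another. Dnmt3a (chr12:3801559-3914443), one of the methyltransferases that methylate the genome after exit, read 544 and 535 CPM in serum/LIF+2i against 329 and 325 CPM in 2i/LIF (0.72, SE 0.04, adjusted p = 3.9e-35). Before exit it had been lower in serum/LIF+2i, by 0.41 (adjusted p for the change = 6.4e-28). Dnmt3b, its partner, crossed in the opposite sense, from 0.32 at 0 h to -0.21 at 12 h, with 334 and 345 against 399 and 386 CPM (adjusted p for the change = 2.0e-10). Dnmt3l (chr10:78042287-78063622), their catalytically inactive cofactor, stood at 667 and 667 CPM against 271 and 260 (1.33, SE 0.09). Its fold change at 0 h was larger, with 184 and 153 against 8.62 and 6.38 CPM (4.50), and the narrowing on the log2 scale passed the test (adjusted p = 4.4e-05). Aire, its neighbour, gave 21.8 and 26.6 against 10.6 and 14.2 CPM (0.98) after 4.09 at 0 h (adjusted p for the change = 2.4e-09). Of the 13 genes of the methylation machinery, 5 were higher and 3 lower; without replicate 2 of serum/LIF+2i, 3 were higher.

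Germline genes whose promoters are held silent by DNA methylation moved both ways. Of 23 tested, 6 were lower and 4 higher. The count of higher members was 2 without replicate 1 of 2i/LIF, and 1 without replicate 2 of 2i/LIF or without either library of serum/LIF+2i. Stra8, the retinoid-induced gatekeeper of meiosis, read 5.68 and 6.49 CPM against 20.7 and 18.2 (-1.66, SE 0.19, adjusted p = 3.6e-09). Dazl, an RNA-binding protein of germ cells, read 29.2 and 28.2 against 47.1 and 51.6 CPM (-0.79, SE 0.09). Rpl10l and Tuba3a were lower by 0.89 and 1.30. On the log2 scale the gaps of Stra8 and Dazl had been wider before exit, at -4.14 and -2.11, and both had narrowed (adjusted p = 5.6e-05 and 4.3e-11). In all, 5 of 23 members had a medium difference that changed between 0 and 12 h, all 5 in the positive direction, where 4.8% of all genes tested changed positively and 4.4% negatively.

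Genes read out from signalling pathways also differed. Of 17 ERK response genes, 8 were higher and 2 lower at 12 h (median 0.20, or 0.099 without replicate 2 of serum/LIF+2i), although at 0 h, under MEK inhibition, 1 was higher and 7 lower (median -0.29), where 14.6% of all genes tested were higher and 18.4% lower. Etv4 (chr11:101769747-101785310), an ETS factor downstream of ERK, stood at 205 and 204 CPM against 143 and 144 (0.51, SE 0.05, adjusted p = 2.7e-16), after 9.11 and 7.2 against 13.1 and 13.4 CPM at 0 h (adjusted p for the change = 3.0e-08). The feedback inhibitors Spry4 (110 and 111 against 66.1 and 65.0 CPM) and Dusp4 (30.4 and 26.5 against 14.3 and 14 CPM) were higher by 0.76 and 1.00, while Spry2, another feedback inhibitor, was lower by 0.32. The medium difference of 7 members changed from 0 h, each towards serum/LIF+2i, where 4.8% of all genes tested changed positively and 4.4% negatively. The number of higher members was 5, and of lower ones 1, without replicate 2 of 2i/LIF, and 4 were higher without replicate 2 of serum/LIF+2i.

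Of 11 Wnt targets tested, 4 were lower in serum/LIF+2i and 0 higher at 12 h (median -0.41, or -0.74 without replicate 1 of serum/LIF+2i). The share called (36.4%) was near the 30.3% of all genes tested, of which 15.5% were lower. At 0 h, 8 Wnt targets had been lower and 0 higher. Notum, a secreted Wnt deacylase, read 83.3 and 81.6 CPM against 150 and 142 (-0.82, SE 0.06, adjusted p = 1.2e-24), and the transcription factor Lef1 7.43 and 7.66 against 15.3 and 15.4 CPM (-1.02, SE 0.16). Axin2, the feedback scaffold of the pathway, was lower by 0.41. Of 10 genes of the LIF and STAT3 list, 4 were lower and 2 higher; the higher count was 0 without replicate 1 of 2i/LIF and 1 without replicate 2 of either group. Stat3 itself (33.4 and 34.3 against 54.4 and 60.2 CPM, -0.76) and Il6st, the receptor subunit gp130 (85.1 and 85.4 against 111 and 114 CPM, -0.40), were lower. Spp1, which encodes osteopontin, read 398 and 404 against 592 and 612 CPM (-0.59, SE 0.04), after a difference of 0.07 at 0 h (adjusted p for the change = 3.7e-20).

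Of 10 members of the Nodal pathway, 4 were lower and 1 higher, the latter count being 0 without replicate 2 of 2i/LIF. The secreted inhibitor Lefty1 stood at 20.7 and 21.8 CPM against 56.6 and 61.0 (-1.46, SE 0.09, adjusted p = 1.2e-27), and its relative Lefty2 at 28.2 and 29.6 against 44.7 and 48.7 (-0.69, SE 0.09). Lefty1 had been lower at 0 h also, by 1.83, whereas Lefty2 had then differed by 0.07 (adjusted p for the change = 1.4e-06). The receptor Acvr1b was lower by 0.76, and Nodal itself was not called (0.03), after 0.76 at 0 h. The ligand Bmp4 of the BMP pathway read 44.2 and 37.9 against 25.6 and 22.7 CPM (0.76). Of 11 members of that list 3 were higher and 1 lower (36.4% called, against 30.3% of all genes tested). The lower call did not hold without replicate 1 of 2i/LIF or replicate 2 of serum/LIF+2i. Among genes that answer to retinoids, Rarg (chr15:102234938-102257522), a retinoic acid receptor, was the clearest crossover. It read 27.3 and 28.5 CPM against 64.3 and 69.0 at 0 h, and 359 and 350 CPM against 299 and 303 at 12 h, so that the fold change went from -1.26 to 0.23 (adjusted p for the change = 2.0e-30). Of 9 retinoid genes tested, 3 were higher and 1 lower at 12 h, against 0 and 5 at 0 h. The difference of 4 of them changed, all towards serum/LIF+2i, where 4.8% of all genes tested changed positively. Targets of SRF and YAP, which report on actin tension and cell spreading, were higher in 8 of 16 cases and lower in 0 (median 0.36). At 0 h, 10 were higher and 0 lower (median 0.54). At 24 h, 0 were higher and 5 lower, and at 40 h 2 and 9. Those higher at 12 h included the YAP regulators Ajuba (0.36) and Amotl2 (0.44), the secreted matrix protein Ccn1 (20.7 and 19.3 against 10.8 and 10.7 CPM, 0.89) and the actin-binding calponin Cnn2 (1.06). Without replicate 2 of serum/LIF+2i, 1 member of that list was called lower.

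**Figure D4:**
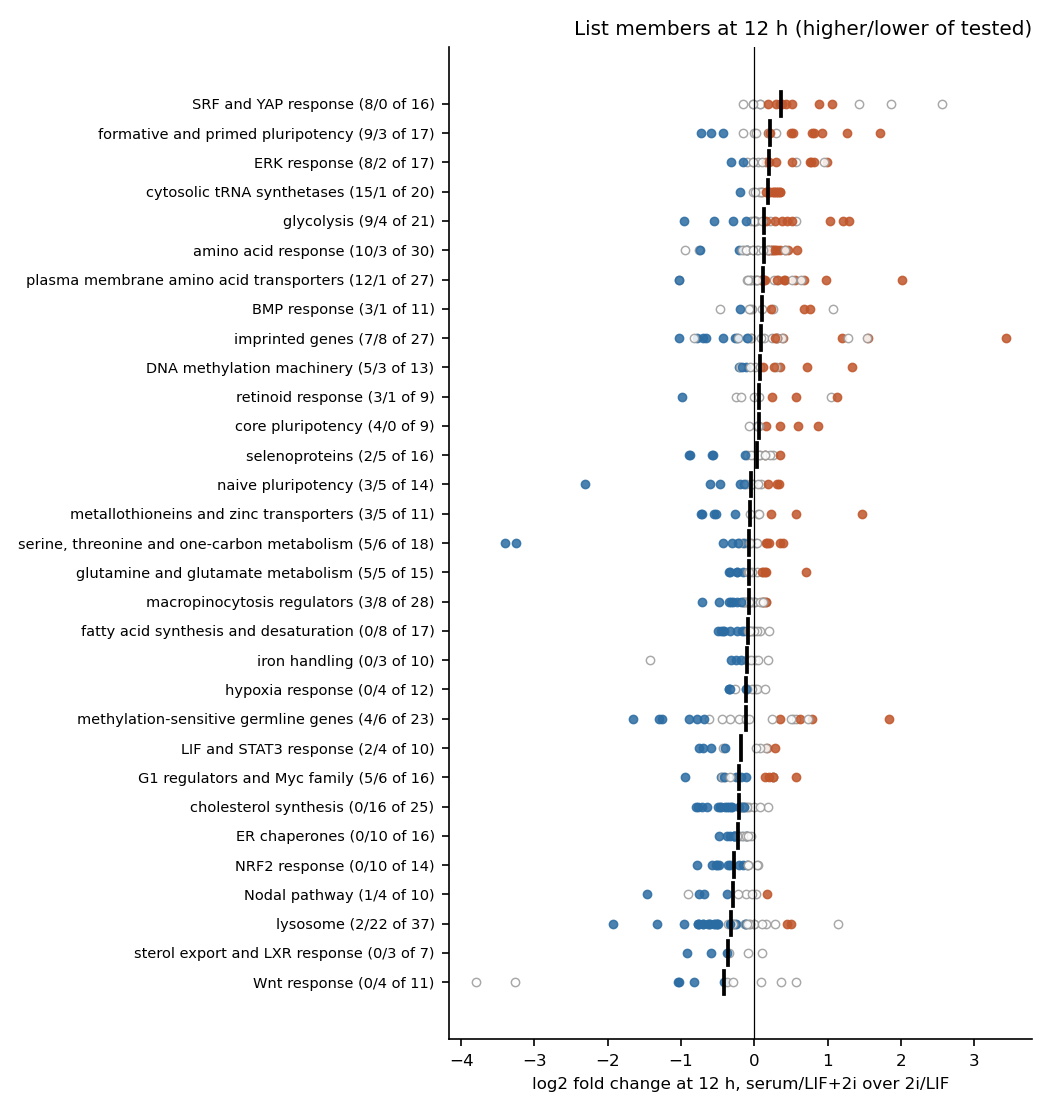
Log2 fold change at 12 h of the tested members of 31 gene lists, filled where called higher (orange) or lower (blue) and open where not called, with a black bar at each list's median and the counts of higher and lower members of those tested beside its name. The SRF and YAP list has the highest median (0.36) and the Wnt list the lowest (-0.41) of the lists shown.

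Amino acid handling differed by small steps in many genes. Amino acid starvation and related stresses raise the factor ATF4, which acts through amino acid response elements in promoters of genes for amino acid synthesis, import and tRNA charging. Of 30 genes of that response, 10 were higher and 3 lower (median 0.13); the lower count was 1 without replicate 1 of 2i/LIF or without either library of serum/LIF+2i. Of 20 cytosolic tRNA synthetases, 15 were higher and 1 lower (median 0.19). The promoters below, from RefSeq on GRCm38.p6, are shown because each holds the element and its gene was higher at 12 h. Having been picked by direction, they do not show which way holders of the element went in general. Each is the 250 bases that end 1 base before the listed start, on the gene's strand, with the element in capitals, TGATGNAA or its reverse complement.
Asns, chr6:7693210-7693459, minus strand: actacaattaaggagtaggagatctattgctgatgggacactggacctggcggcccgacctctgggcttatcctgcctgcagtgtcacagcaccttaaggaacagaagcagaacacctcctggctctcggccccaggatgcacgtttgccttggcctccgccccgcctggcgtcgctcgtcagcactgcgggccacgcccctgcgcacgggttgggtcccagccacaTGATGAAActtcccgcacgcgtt
Pycr1, chr11:120643749-120643998, minus strand: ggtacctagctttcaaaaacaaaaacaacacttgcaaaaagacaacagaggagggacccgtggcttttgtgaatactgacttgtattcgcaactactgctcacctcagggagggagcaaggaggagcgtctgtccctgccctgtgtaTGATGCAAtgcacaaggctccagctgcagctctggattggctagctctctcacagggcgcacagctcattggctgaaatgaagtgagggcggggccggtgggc
Tars, chr15:11399659-11399908, minus strand: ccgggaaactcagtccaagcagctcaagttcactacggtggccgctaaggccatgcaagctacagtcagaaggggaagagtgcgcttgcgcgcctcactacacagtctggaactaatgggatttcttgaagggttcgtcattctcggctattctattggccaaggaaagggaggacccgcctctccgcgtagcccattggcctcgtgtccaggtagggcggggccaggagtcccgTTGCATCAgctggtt
Gars, chr6:55037751-55038000, plus strand: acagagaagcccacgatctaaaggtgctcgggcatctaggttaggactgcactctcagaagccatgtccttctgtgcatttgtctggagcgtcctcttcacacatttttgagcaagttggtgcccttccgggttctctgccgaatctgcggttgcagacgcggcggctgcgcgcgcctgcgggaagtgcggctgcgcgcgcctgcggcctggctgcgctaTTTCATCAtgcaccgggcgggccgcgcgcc
The element starts 23 bases before the start in Asns, 103 in Pycr1, 15 in Tars and 30 in Gars. It was present on either strand in 8 of 27 amino acid response genes with a window (29.6%) and in 3 of 12 tRNA synthetases (25%), against 1.98% of 10888 tested genes with a window. These shares describe the lists, in whichever direction their members went at 12 h, and were not tested. The other holders in these lists were Chac1, Atf3, Nupr1, Herpud1, Fgf21, Pck2 and Aars. Of the amino acid transporters described below, Slc7a7, which was higher, and Slc7a11, which was not called, also hold the element. Whether genes with the element differed from those without it was not tested.

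Asns, which makes asparagine, stood at 819 and 828 CPM against 640 and 652 (0.35, SE 0.04, adjusted p = 5.3e-14), and its difference was the same 0.35 at 0 h. Pycr1, the last enzyme of proline synthesis, read 38.2 and 36.6 against 24.3 and 25.8 CPM (0.58, SE 0.11). Psat1, of serine synthesis, read 606 and 601 against 435 and 438 CPM (0.47, SE 0.04, adjusted p = 4.5e-22), up from 0.16 at 0 h (adjusted p for the change = 2.9e-06). Shmt2, which moves serine carbon into mitochondrial folate, crossed from -0.13 to 0.24 (adjusted p for the change = 2.6e-07). Psph, the phosphatase of serine synthesis, and Eif4ebp1, a brake on translation, were higher by 0.42 and 0.29. Atf4 itself was lower by 0.10, one of the 3 lower members, a call lost without replicate 1 of 2i/LIF or either library of serum/LIF+2i (adjusted p from 0.099 to 0.34). The synthetases for asparagine (Nars, 0.35), threonine (Tars, 0.32), tyrosine (Yars, 0.31) and glutamate with proline (Eprs, 0.28) led their list, and the glutamine enzyme Qars was lower by 0.19.

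Of 27 plasma membrane amino acid transporters tested, 12 were higher and 1 lower (median 0.12). The higher count was 6 without replicate 1 of 2i/LIF and 7 without replicate 2 of serum/LIF+2i. Slc38a1, a glutamine importer, read 276 and 273 CPM against 195 and 220 (0.40, SE 0.04, adjusted p = 7.1e-14). Slc1a3, a glutamate and aspartate importer, read 25.4 and 29.0 against 14.7 and 13.1 CPM (0.98, SE 0.13), and Slc7a6, a light chain for cationic and neutral amino acids, 54.1 and 58.3 against 40.0 and 36.6 CPM (0.56, SE 0.08). Slc7a7, its relative, crossed from -0.66 at 0 h to 0.31 at 12 h (adjusted p for the change = 6.9e-08). The lower one was Slc43a1, a transporter of large neutral amino acids, at 3.65 and 5.11 against 8.77 and 9.36 CPM (-1.02, SE 0.22). Slc1a5, Slc7a11 and Slc36a1 were not called, with fold changes between -0.04 and 0.03. Regulators of macropinocytosis, by which cells engulf fluid and protein, had 3 higher and 8 lower members of 28 (39.3% called, against 30.3% of all genes tested). The higher count was 1 without either library of serum/LIF+2i and the lower count 5 without replicate 2 of 2i/LIF. Pik3r1, a regulatory subunit of PI3K, was lower by 0.72 and the sorting nexin Snx1 by 0.49, and no member had a medium difference that changed from 0 h.

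Transcripts of sterol and fatty acid synthesis genes were lower in cells from serum/LIF+2i, but less so than before exit. Of 25 cholesterol genes, 0 were higher and 16 lower at 12 h (median -0.21), compared with 21 lower at 0 h (median -0.53). The difference of 13 members had changed, all towards serum/LIF+2i, where 4.8% of all genes tested changed positively. Without replicate 2 of 2i/LIF, 1 member was called higher. Cyp51 (chr5:4080674-4104697), a sterol demethylase, stood at 189 and 186 CPM against 255 and 259 at 12 h (-0.45, SE 0.04, adjusted p = 2.0e-16), and at 96.4 and 101 against 184 and 189 CPM at 0 h (-0.92; adjusted p for the change = 6.6e-08). Dhcr7, which completes cholesterol synthesis, read 117 and 115 against 161 and 160 CPM at 12 h (-0.47, SE 0.05). The groups did not overlap in either gene. The isomerase Ebp and the sterol sensor Insig1 were lower by 0.76 and 0.40. SREBP2, the sterol-sensing factor, acts through sterol regulatory elements. Searched as TCACNCCAC on both strands, the element was found in 1 of 17 cholesterol genes with a window, against 1.01% of all, and that gene is shown.
Hmgcs1, chr13:119690101-119690350, plus strand, GRCm38.p6: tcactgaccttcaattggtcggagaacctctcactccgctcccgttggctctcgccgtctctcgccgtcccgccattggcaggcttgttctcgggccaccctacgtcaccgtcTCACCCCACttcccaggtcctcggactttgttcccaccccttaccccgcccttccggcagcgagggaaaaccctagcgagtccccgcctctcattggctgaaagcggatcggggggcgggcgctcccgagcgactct
Hmgcs1, which makes the precursor of mevalonate, was not called at 12 h (-0.07), after -0.38 at 0 h.

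Fatty acid genes followed the same course. Of 17 tested, 8 were lower and 0 higher at 12 h (median -0.08, or as far as -0.16 without replicate 2 of 2i/LIF). At 0 h, 14 were lower and 1 higher (median -0.47). The difference of 10 had changed, all positively, where 4.8% of all genes tested did so. The lower count at 12 h was 5 without replicate 2 of 2i/LIF and 4 without replicate 2 of serum/LIF+2i. Acly, which supplies cytosolic acetyl-CoA, read 755 and 782 CPM against 1058 and 1047 (-0.45, SE 0.03, adjusted p = 2.0e-22), and the desaturases Fads1 and Fads2 were lower by 0.50 and 0.42, the latter after -0.98 at 0 h (adjusted p for the change = 9.2e-08). Scd1, the stearoyl-CoA desaturase, was at 261 and 294 against 561 and 561 CPM before exit and at 521 and 529 against 568 and 585 CPM at 12 h (adjusted p for the change = 6.4e-28). Its remaining difference of -0.13 was not called without replicate 2 of 2i/LIF (adjusted p = 0.060). Apoe (chr7:19696244-19701310), a lipoprotein induced by the sterol receptor LXR, read 289 and 280 against 528 and 542 CPM (-0.91, SE 0.04, adjusted p = 3.0e-43), a larger gap than the -0.71 at 0 h (adjusted p for the change = 0.0040).

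Lysosomal genes were lower as a group. Of 37 tested, 22 were lower and 2 higher (median -0.31), as at 0 h (22 and 2, median -0.28), and the summed level of the list was 2916 and 2925 CPM against 3499 and 3463 CPM. The medium difference of 11 members was more negative at 12 h than at 0 h, and that of 1 was more positive. Of all genes tested, 4.4% changed negatively and 4.8% positively. Hexa (chr9:59539540-59565109), the alpha chain of beta-hexosaminidase, read 17.8 and 17.6 CPM against 43.3 and 45.6 (-1.33, SE 0.10, adjusted p = 5.3e-22), after -0.45 at 0 h (adjusted p for the change = 9.0e-09). Glb1, the lysosomal beta-galactosidase, went from -0.29 to -0.96 (adjusted p for the change = 1.6e-08). Npc2, which hands cholesterol out of the lysosome, stood at 123 and 122 against 205 and 211 CPM (-0.76, SE 0.05), and the protease Ctsb at 95.6 and 91.5 against 162 and 154 CPM (-0.76, SE 0.06). Manba, the beta-mannosidase, was a counterexample, at 355 and 367 against 271 and 258 CPM (0.45, SE 0.04), and it was also the 1 member with a more positive difference than at 0 h, when it was -0.34 (adjusted p for the change = 8.0e-17). Ctsd and Ctsz were not called (-0.00 and 0.00).

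Chaperones of the endoplasmic reticulum (ER) were lower in 10 of 16 cases and higher in 0, and all 16 values were negative (median -0.22). At 0 h, 3 were higher and 4 lower (median -0.00). The difference of 7 members had changed by 12 h, all downwards, where 4.4% of all genes tested changed negatively. The list was on the other side later. At 24 h, 14 were higher and 0 lower (median 0.42), and at 40 h 9 and 0 (median 0.16). Calr, the calcium-binding chaperone of glycoproteins, stood at 378 and 404 CPM against 540 and 549 (-0.48, SE 0.04, adjusted p = 4.6e-21), after 0.04 at 0 h (adjusted p for the change = 7.3e-14). Hsp90b1, the ER form of HSP90, crossed from 0.14 to -0.28 (adjusted p = 8.4e-12), and Pdia4 and Canx were lower by 0.37 and 0.28.

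Of 14 targets of NRF2, the factor that responds to oxidants, 10 were lower and 0 higher (median -0.27), close to 0 h (9 lower, 1 higher, median -0.26). Nqo1, a quinone reductase, read 173 and 191 CPM against 253 and 273 (-0.53, SE 0.05), Gstm1, a glutathione transferase, 49.2 and 56.5 against 90.2 and 92.1 CPM (-0.78, SE 0.07), and Pgd, which makes NADPH in the pentose phosphate pathway, 361 and 360 against 507 and 518 CPM (-0.51, SE 0.04). Gclc, the first enzyme of glutathione synthesis, was lower by 0.48. Among selenoproteins, 5 of 16 were lower and 2 higher (0 without replicate 1 of 2i/LIF and 1 without replicate 1 of serum/LIF+2i), the lower ones including Gpx4, which detoxifies lipid peroxides (-0.57), Selenow (-0.58) and the carrier Selenop (-0.90). Gpx2, lower by 2.53 as given above, was not a member of the selenoprotein or the NRF2 list. The metallothioneins Mt1 (312 and 296 against 506 and 501 CPM) and Mt2 were lower by 0.73 and 0.55, and so was the zinc exporter Slc30a1 (-0.71), while the zinc importer Slc39a14 was higher by 0.57. Tfrc, the transferrin receptor, crossed from 0.27 at 0 h to -0.32 at 12 h, where it stood at 208 and 192 against 253 and 247 CPM (adjusted p for the change = 3.4e-15). Of 10 iron genes, 3 were lower and 0 higher, and the share called (30%) was that of all genes tested (30.3%).

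Glycolytic genes split between the media. Ldha (chr7:46842274-46855627), which turns pyruvate into lactate, stood at 786 and 821 CPM against 330 and 328 (1.29, SE 0.04, adjusted p = 1.9e-57), and Ldhb, the subunit that favours the reverse reaction, at 84.6 and 92.1 against 174 and 170 CPM (-0.96, SE 0.05, adjusted p = 1.7e-31). Slc16a3, a lactate exporter, read 52.8 and 47.9 against 18.6 and 24.6 CPM (1.21, SE 0.10), and Pfkp, a phosphofructokinase, was higher by 0.44. Of the 21 genes, 9 were higher and 4 lower (median 0.14, or 0.087 without replicate 1 of 2i/LIF). Of 12 hypoxia response genes, which share part of this programme, 0 were higher and 4 lower (33.3% called, close to the 30.3% of all genes tested). The lower count fell when any 1 of the 4 libraries was left out.

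Of the imprinted genes, 7 of 27 were higher and 8 lower. On the higher side, Phlda2, a placental growth regulator, read 10.1 and 10.4 against 4.52 and 4.41 CPM (1.20, SE 0.20). The noncoding RNA H19, at 1.89 and 1.38 against 0.137 and 0.134 CPM, and its neighbour Igf2, a growth factor, at 3.24 and 2.45 against 0.959 and 0.936 CPM, were low but higher too (adjusted p = 0.00020 and 0.0020). The noncoding RNAs of the Dlk1-Dio3 locus lay together on the lower side: Meg3 at 92.7 and 90.7 against 147 and 143 CPM (-0.66, SE 0.05), Rian at 120 and 128 against 207 and 197 CPM (-0.70, SE 0.05) and Mirg at 9.60 and 9.15 against 18.6 and 19.7 CPM (-1.03, SE 0.15). Their differences at 0 h were -0.69, -0.68 and -0.85. Peg3, a zinc-finger gene expressed from the paternal allele, was lower by 0.78. Of 16 regulators of G1 and Myc genes, 5 were higher and 6 lower (median -0.20). The higher count was 2 without replicate 2 of serum/LIF+2i, and the lower count 3 without replicate 1 of either group. Cdkn1a, the inhibitor p21, read 60.7 and 52.8 CPM against 109 and 108 (-0.95, SE 0.06, adjusted p = 7.8e-26), after -0.34 at 0 h (adjusted p for the change = 8.6e-10), and the cyclins Ccne1 and Ccnd2 were higher by 0.26 and 0.57. Ccnd1, another cyclin of G1, was lower by 0.15, a call lost without replicate 2 of 2i/LIF (adjusted p = 0.077).

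Markers of other cell types were summed per library. In bulk libraries fewer cells of a type and less RNA per cell cannot be told apart. The 9 measured markers of 2-cell-like cells, a rare state that activates genes of the 2-cell embryo, summed to 3.92 and 3.09 CPM against 18.6 and 13.1 CPM. Of them, 6 were lower and 0 higher, but 2 were lower without replicate 2 of serum/LIF+2i. Zscan4d read 0.676 and 0.852 against 4.52 and 4.68 CPM (-2.55, SE 0.39). Primitive endoderm markers summed to 433 and 428 against 371 and 367 CPM, most of it Sparc, and 5 of 10 were higher, or 3 without replicate 1 of 2i/LIF. These were the basement membrane genes Col4a1, Col4a2, Lama1 and Lamb1, and Amn, which had 12 and 14 counts against 0 and 0 and no adjusted p by DESeq2. The defining factors Gata6, Gata4, Sox17 and Pdgfra did not exceed 1.10 CPM in any of the 4 libraries. Trophoblast markers summed to 43.7 and 39.8 against 30.4 and 31.4 CPM, with Gata3, Eomes and Krt18 higher and Tfap2c lower, and Cdx2, Elf5 and Hand1 at most at 0.401, 0.213 and 0.319 CPM. Neural markers summed to 105 and 99.8 against 86.3 and 91.4 CPM, and of 6 tested 2 were higher and 1 lower (median -0.05). Sox1 was higher by 1.06 and Tubb3 by 0.20, and Pax6 was lower by 0.77. The higher count was 1 without replicate 1 of 2i/LIF or either library of serum/LIF+2i, and the lower count 0 without replicate 2 of 2i/LIF. Those of the primitive streak summed to 7.16 and 6.92 against 5.34 and 5.62 CPM with 0 of 4 called, and those of fibroblasts to 12.6 and 8.73 against 5.07 and 4.41 CPM, of which Thy1 was called and Lum, Postn and Twist2 were at 0. The part of such cells in the other results was not tested.

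The same contrast at the other times used separate libraries. At 0 h, 4710 genes (33%) differed, of which 2503 were shared with 12 h, that is 57.8% of the 12 h genes and 53.1% of the 0 h genes, 94.3% of them in the same direction. At 24 h (4439 genes, 31.1%) 2076 were shared, 47.9% and 46.8%, with 85.5% in the same direction. At 40 h (3897 genes, 27.3%) 1629 were shared, 37.6% and 41.8%, with 65.0% in the same direction; without replicate 1 of 2i/LIF at 40 h, 2240 genes were called there. Called genes at least 2-fold apart made up 5.69% of those tested at 0 h, 4.34% at 24 h and 3.37% at 40 h. Across the 14288 genes, which are not independent and share libraries within each time, Pearson's r of the fold changes with those at 12 h was 0.45 for 0 h, 0.40 for 24 h and 0.12 for 40 h, and Spearman's rho was 0.51, 0.39 and 0.14. The r with 40 h was 0.23 once genes averaging below 5 CPM were left out, and 0.055 when the second 12 h library of serum/LIF+2i was dropped. In all, 888 of the 12 h genes (20.5%) were called at no other time and 533 (12.3%) at all 4 times in one direction, 192 higher and 341 lower.

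The test of the change itself called 1315 genes (9.2%), 686 with a more positive and 629 with a more negative medium difference at 12 h than at 0 h. This split depended on scaling: without ribosomal RNA genes in the library sizes, 41.4% rather than 52.2% of the called genes were more positive. DESeq2 called 574. There were 142 genes called at both times in opposite directions, 70 lower at 0 h and higher at 12 h and 72 the reverse. Examples named above were Klf4, Nanog, Dnmt3a, Dnmt3b, Etv4, Shmt2, Slc7a7, Rarg, Tfrc, Manba and Hsp90b1. Genes that stayed apart at all 4 times included Gpx2 (between -2.53 and -1.88), Ccdc141 (14.9 and 16.5 against 49.9 and 49.3 CPM at 12 h, and between -2.57 and -1.49) and the acetate enzyme Acss1 (between -1.92 and -1.15) on the lower side, and the fructose transporter Slc2a5 (between 1.05 and 1.68) and the ribosomal paralogue Rpl39l (88.7 and 95.3 against 36.4 and 43.9 CPM at 12 h, and between 0.93 and 1.64) on the higher side. Other 12 h differences had the opposite sign at 40 h: Otx2 was -2.59, Ldha -0.47, Slc16a3 -0.76, Stra8 1.79 and Dazl 0.72 there. Whether the difference itself changed from 12 h to 24 or 40 h was not tested.

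**Figure D5:**
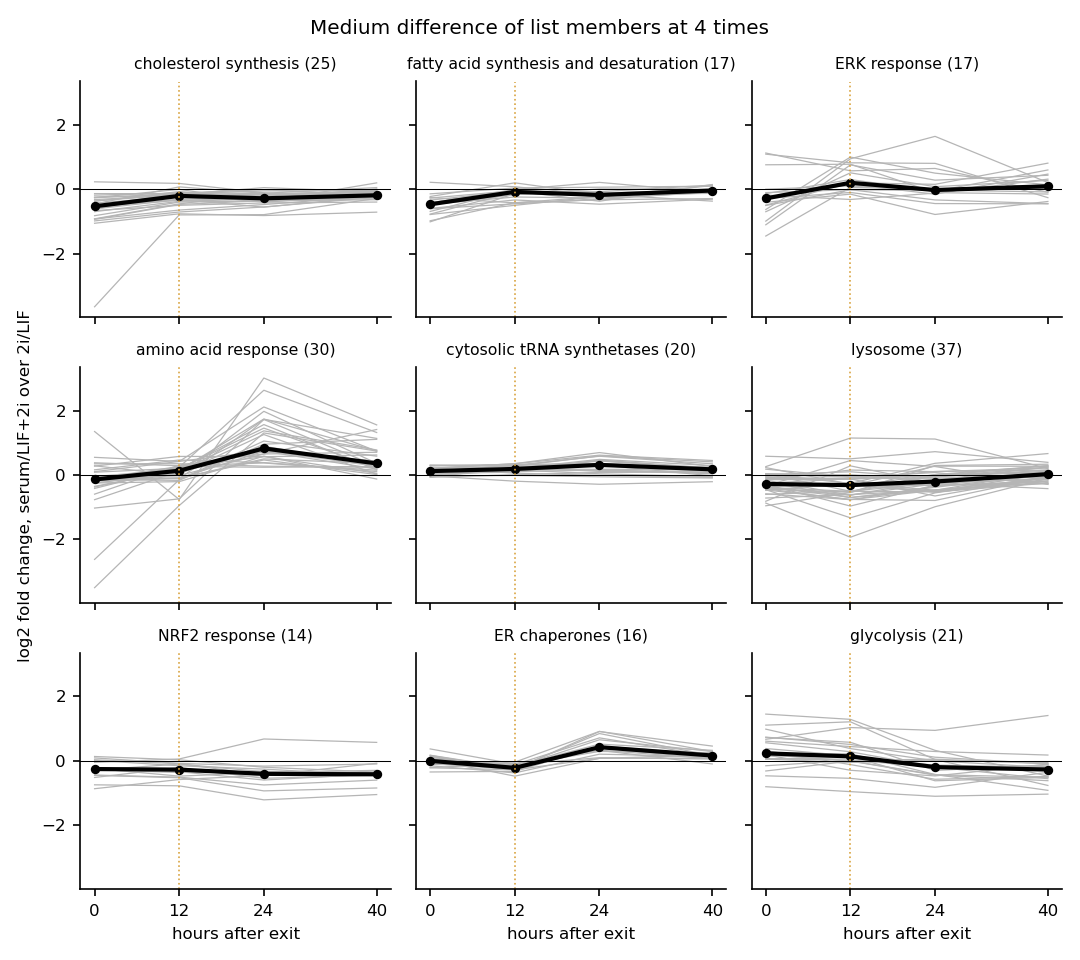
Log2 fold change of serum/LIF+2i over 2i/LIF at 0, 12, 24 and 40 h for the tested members (grey lines) of 9 gene lists, with the list median in black and 12 h marked by a dotted line. From 0 to 12 h the median of cholesterol synthesis went from -0.53 to -0.21 and that of the ERK response from -0.29 to 0.20, and the amino acid response reached its highest median, 0.83, at 24 h, when 29 of 30 members were higher (14.1% of all genes tested).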

How the data were processed

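The authors deposited 1 table of counts per gene, whole numbers that are not normalized, with a gene length, per the file headers. Per the submitters' processing notes the tools were fastp, STAR and featureCounts with the build mm10, and their versions, the annotation and the strand setting are not given in the sources used here. Per the labels' protocols, RNA was taken with TRIzol and libraries came from a stranded poly(A) kit. Each of the 16 columns was matched to a sample by its title, and 0 columns were set aside. Of 27179 genes, 5836 had 0 counts throughout and 1049 had no symbol.

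Genes were filtered with filterByExpr (minimum count 10, minimum total 15), scaled by TMM and fitted in edgeR 4.0.16 (R 4.3.3) with a term per group over all 16 libraries, leaving 8 residual degrees of freedom. The common biological coefficient of variation was 3.19%. Contrasts were tested two-sided by the robust quasi-likelihood F test, with Benjamini-Hochberg adjustment over 14288 genes, and SEs were derived from F. The procedure was tested on simulated data. Intervals and floors cover counting error only, since reads carry no molecular identifiers.

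The comparison, the 37 gene lists (616 entries, 568 tested) and the motifs were chosen with earlier results of these data known, and 2 of the lists' members were absent from the table. Lists are described by counts and medians, with no set test. Genes were named by rule: the 12 highest and 12 lowest fold changes at 12 h among called genes with at least 5 CPM in the higher group and no overlap, up to 4 or 6 called members per list by adjusted p, counterexamples, and the genes with the largest change since 0 h or called at all 4 times. Promoter windows and gene coordinates are from RefSeq (GRCm38.p6), the assembly of mm10, and exon overlaps from GENCODE M21; 71 of 665 named or listed genes overlap another tested gene. Replicate numbers did not pair samples: deviations from group means correlated between groups by -0.023 to 0.033 for same-numbered libraries. Results for some members of the cholesterol list are not reported here.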

Additional observations from a re-analysis of the deposited data

Results flagged for a closer look

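For 72 of the genes named above the medium difference at 12 h differed from that at 0 h by the test of the difference itself (edgeR, adjusted p under 0.05), 35 in the positive and 37 in the negative direction. The values are differences of log2 fold changes, 12 h minus 0 h, and no account of their cause is given. Some of the genes were named for the size of this change or for opposite calls at 0 and 12 h. For those, passing the test was in part built into the choice. The split is that of these genes and not of all genes tested. Over all genes tested 9.2% were called by this test, 4.8% in the positive and 4.4% in the negative direction. The 72 are listed because they passed, so they give no share of their own.

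More positive at 12 h were Stra8 (2.48), Ccnd2 (1.84), Dusp4 (1.63), Padi4 (1.55), Rarg (1.49), Evc2 (1.39), Dazl (1.33), Slc43a1 (1.27), Etv4 (1.21), Dnmt3a (1.13), Tubb3 (1.07), Slc7a7 (0.97), Phlda2 (0.96), Emp1 (0.93), Scd1 (0.88), Manba (0.79), Slc39a14 (0.66), Fads2 (0.56), Nr0b1 (0.56), Cyp51 (0.46), Dhcr7 (0.46), Lamb1 (0.45), Selenow (0.43), Insig1 (0.42), Peg3 (0.42), Shmt2 (0.37), Rpl10l (0.33), Psat1 (0.31), Hmgcs1 (0.30), Lin28a (0.30), Fads1 (0.29), Klf5 (0.28), Ccne1 (0.28), Ccnd1 (0.25) and Acly (0.15).

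More negative at 12 h were Dnmt3l (-3.17), Aire (-3.11), Trpm1 (-1.83), Sox1 (-1.65), Tnni1 (-1.53), Pof1b (-1.46), Dmgdh (-1.41), Rasgrp1 (-1.39), Gstm3 (-1.28), Dppa3 (-1.26), Maml2 (-1.15), Klf4 (-0.96), Hexa (-0.88), Tfap2c (-0.86), Lefty2 (-0.76), Nodal (-0.73), Cnn2 (-0.71), Glb1 (-0.67), Spp1 (-0.65), Utf1 (-0.61), Cdkn1a (-0.61), Tfrc (-0.59), Dnmt3b (-0.53), Calr (-0.52), Nanog (-0.46), Rpl39l (-0.45), Prdm14 (-0.43), Hsp90b1 (-0.43), Ctsb (-0.29), Il6st (-0.26), Gclc (-0.24), Pdia4 (-0.22), Apoe (-0.21), Zfp42 (-0.19), Npc2 (-0.18), Qars (-0.16) and Ldha (-0.16).

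Of the 72, 31 were no longer called under at least 1 of the alternatives: Acly, Ccnd1, Ccnd2, Cnn2, Ctsb, Dusp4, Emp1, Evc2, Fads1, Gclc, Gstm3, Il6st, Klf5, Lamb1, Ldha, Npc2, Pdia4, Peg3, Phlda2, Pof1b, Prdm14, Qars, Rasgrp1, Rpl10l, Rpl39l, Slc39a14, Slc43a1, Sox1, Tfap2c, Tnni1 and Zfp42.

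For 5 genes every library pointed one way at 12 h and the opposite way at 40 h, and this difference was not tested. Their fold changes at 40 h were -2.59 for Otx2, -0.47 for Ldha, -0.76 for Slc16a3, 1.79 for Stra8 and 0.72 for Dazl.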

How the results depend on the processing

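Alternatives were another scaling, other filters, DESeq2, a fit of the compared groups alone, removal of ribosomal RNA genes, the replicate block and leaving out each library. The number of genes called at 12 h was 4325 with DESeq2 size factors, 4313 with library size only, 3986 at a mean of at least 5 CPM and 3102 to 3353 with 1 library left out. DESeq2 called 2668 genes at 12 h, 3115 at 0 h, 2729 at 24 h, 2010 at 40 h and 574 for the change since 0 h. At an absolute log2 fold change of at least 1 the numbers were 666, 813, 620, 482 and 232. With 1 library left out, 0 h gave 3546 to 3949, 24 h 3104 to 3473, 40 h 2240 to 3245 and the change 931 to 1105; the lone library is then assumed to vary like the others. Pearson's r with the 12 h fold changes, restricted to a mean of at least 5 CPM, was 0.621 for 0 h, 0.527 for 24 h and 0.227 for 40 h, and with 1 library at 12 h left out it ranged from 0.369 to 0.401, from 0.292 to 0.358 and from 0.055 to 0.116. The replicate block gave 4355 genes at 12 h; same-numbered libraries of the 2 groups at 12 h deviated with r = -0.023, so the numbers were not taken as pairs. For the genes that could be named, 100 of 2674 values at 12 h, in 36 of 226 genes, were no longer called under an alternative and 0 reversed, and for the change 194 of 1396, in 41 of 88 genes. Of 295 list medians recomputed, 236 moved by less than their spread and 8 changed sign. Depth limits low genes: 3 counts equal 0.319 to 0.411 CPM at 12 h.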

Other observations

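Genes on the X chromosome were shifted as a set at 12 h. Of 518 tested X-linked genes, 37 were higher and 122 lower in cells from serum/LIF+2i, with a median log2 fold change of -0.14 that ran from -0.14 to -0.12 over the choices of 1 library per group. The medians of the 19 autosomes lay between -0.057 and 0.051, and over all 13459 autosomal genes 2053 were higher and 2077 lower. The X medians at 0, 24 and 40 h were -0.13, -0.16 and -0.090. The share of X-linked genes called at 12 h (30.7%) was close to that of all genes tested (30.3%). The shift was not limited to the X. Of 7 tested genes on the Y chromosome, 3 were lower and 0 higher at 12 h, with a median of -0.21. The Y medians at 0, 24 and 40 h were -0.45, -0.70 and -0.23. Of the autosomes, chromosome 8 had the highest median at 12 h (0.051), with 161 genes higher and 87 lower, and chromosome 16 the lowest (-0.057), with 44 higher and 90 lower.

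Mitochondrially encoded transcripts were lower as well. Of 10 tested, 6 were lower and 0 higher, with a median of -0.24 at 12 h and -0.40, -0.52 and -0.36 at 0, 24 and 40 h. COX1, a subunit of cytochrome c oxidase and one of the 5 genes with the most counts at 12 h, stood at 10631 and 10919 CPM in serum/LIF+2i against 13521 and 12775 CPM in 2i/LIF (-0.29, SE 0.03, edgeR adjusted p = 6.1e-16), and ND1, of complex I, was lower by 0.23.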
